A study of Mus musculus with 15 samples.

Results

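The 10 genes described here belong to the interleukin-1 (IL-1) family and its receptors. They are the cytokine genes *Il1a*, *Il1b*, *Il18* and *Il33*, the antagonist gene *Il1rn*, the binding protein gene *Il18bp*, and the receptor genes *Il1r1*, *Il1r2*, *Il1rap* and *Il1rl1*. They were taken by name from an RNA-seq table of 20089 genes, and all 10 were found. The cells were mouse bone marrow-derived macrophages (BMDMs), grown from marrow precursors of wild-type mice in macrophage colony-stimulating factor (M-CSF). All 15 samples were in M-CSF and fell into 5 groups of 3: control cells with M-CSF alone, and cells that also received RANKL for 4 h, RANKL for 3 days (72 h), lipopolysaccharide (LPS) for 4 h or LPS for 3 days (72 h). RANKL is the cytokine that turns these precursors into osteoclasts, and LPS is a bacterial product sensed by TLR4, so the comparison sets osteoclast formation beside inflammatory activation. A 72 h culture without stimulus was not among the samples analysed here, and for the 72 h groups the effects of stimulus and of time in culture cannot be told apart. The labels give no age and do not say whether replicates came from separate cultures or animals, so p-values measure only the spread between these samples, which may be technical.

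IL-1α and IL-1β, the products of *Il1a* and *Il1b*, bind the receptor IL-1R1, which recruits the accessory chain IL-1RAP and signals through MYD88 and IRAK kinases to NF-κB and AP-1. The same pathway is held back at several steps: *Il1rn* encodes a receptor antagonist that occupies IL-1R1 without signalling, *Il1r2* encodes a decoy receptor that binds IL-1 without signalling, and *Il18bp* encodes a soluble protein that captures IL-18. IL-33 signals through ST2, the product of *Il1rl1*, also with IL-1RAP. In bone, IL-1 is known as a stimulator of osteoclast formation and resorption, and macrophages exposed to bacterial products are a classical source of it.

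Libraries held 18306184 to 20330207 fragments on listed genes (median 19351141). Values are FPKM, fragments per kilobase of transcript scaled to the mapped fragments of the library, which correct for gene length, so levels of different genes can be set side by side. Tests were made with limma on log2(FPKM + 0.1) over 11743 genes, and a gene was called at a fold change above 1.5 or below 0.66 with a Benjamini-Hochberg adjusted p under 0.05. All 10 members were tested, but *Il33* passed the filter on low values, a mean of at least 0.1 FPKM over the 15 samples, only through the LPS 4 h group (mean 0.192, and 0.0382 without that group). The 10 macrophage markers were present in every group. Against control, 9 of 10 osteoclast markers were called higher in RANKL 72 h, where 16.6% of all tested genes were. In LPS 4 h 10 of 10 genes of the LPS response were called higher, where 8.43% of all tested genes were. Markers of other cells were also present: the summed level of 14 neutrophil markers was 7978 to 24505 FPKM in control and 342 to 2092 FPKM in LPS 72 h. The median tested gene shifted by -0.52 (log2) in LPS 4 h, by 0.16 in RANKL 72 h and by 0.08 in LPS 72 h, so changes near those sizes are changes of the typical gene. After centring each sample on its median, the share of calls against control that were higher went from 17.5% to 55.0% in LPS 4 h and from 68.8% to 45% in RANKL 72 h. RNA amounts are those of whole cultures, in which fewer cells of a type and less RNA per cell cannot be told apart.

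**Figure D1:**
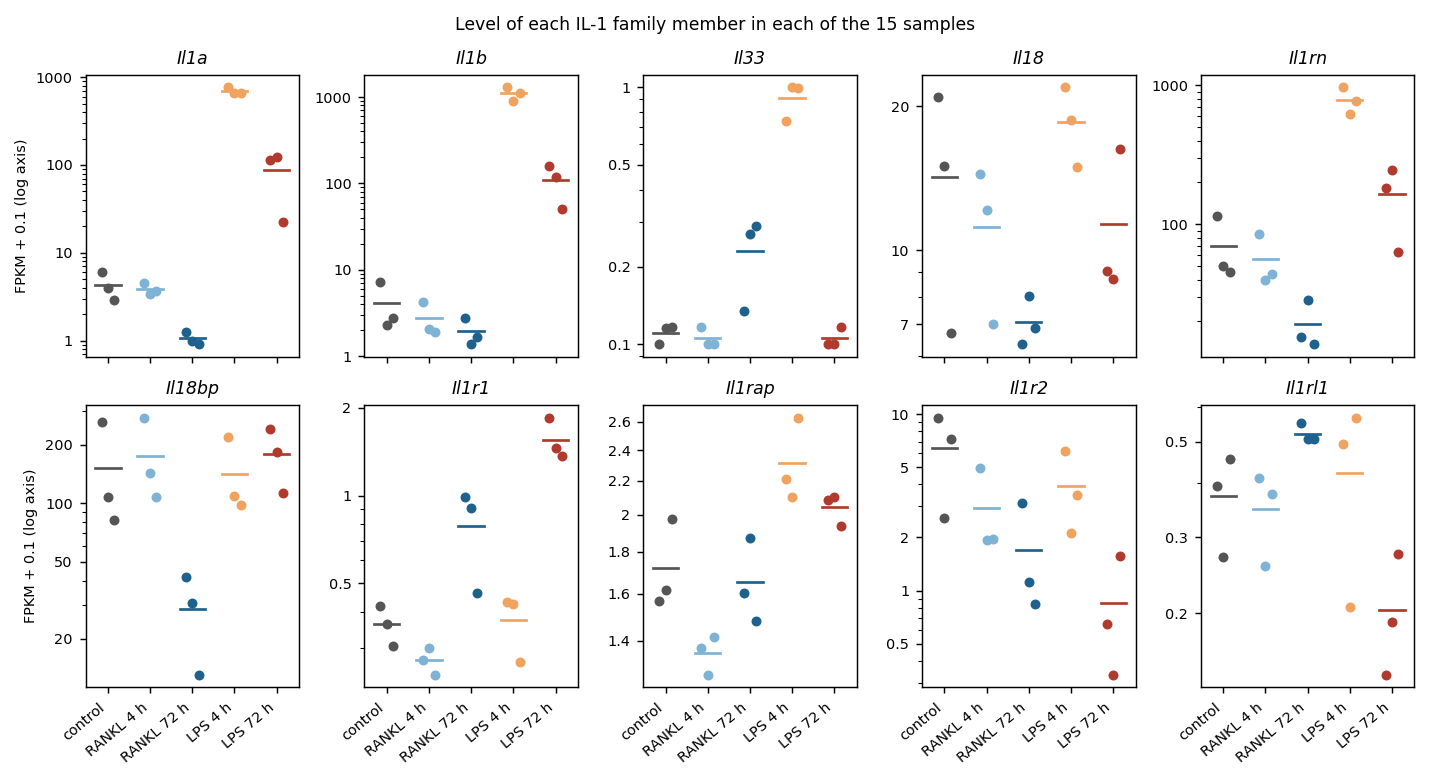
Level of each of the 10 members in the 15 samples (y axis, FPKM + 0.1 on a log axis, each panel with its own range; x axis, the 5 groups). Points are samples in the order of their replicate numbers and lines are means of 3. *Il1a*, *Il1b* and *Il1rn* stand highest in the LPS 4 h samples, *Il18bp* lowest in RANKL 72 h and *Il1r1* highest in LPS 72 h.

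Members were counted without *Il33*, since a gene that passes the filter through 1 group had to stand high in it, and *Il33* is described apart by its fragments. Of the other 9, RANKL 4 h changed 0, higher or lower, as limma called 0.111% of all tested genes higher and 0.00852% lower. At an unadjusted p under 0.05 with the same folds, 0 members were called, against 2.56% of all genes, and voom on fragments also called 0. In RANKL 72 h, 1 of the 9 rose (*Il1r1*) and 4 fell (*Il1a*, *Il1rn*, *Il18bp* and *Il1r2*), where 16.6% of all genes rose and 7.54% fell. In LPS 4 h, 3 rose (*Il1a*, *Il1b* and *Il1rn*) and 0 fell, where 8.43% of all genes rose and 39.7% fell. In LPS 72 h, 3 rose (*Il1a*, *Il1b* and *Il1r1*) and 1 fell (*Il1r2*), where 13% rose and 14.4% fell. The median of the 9 changed by -0.28, -0.94, 0.43 and 0.36 (log2) with 4 h and then 72 h of RANKL and with 4 h and then 72 h of LPS, against 0.00, 0.16, -0.52 and 0.08 for the median tested gene. The 4 comparisons share the control samples.

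**Figure D2:**
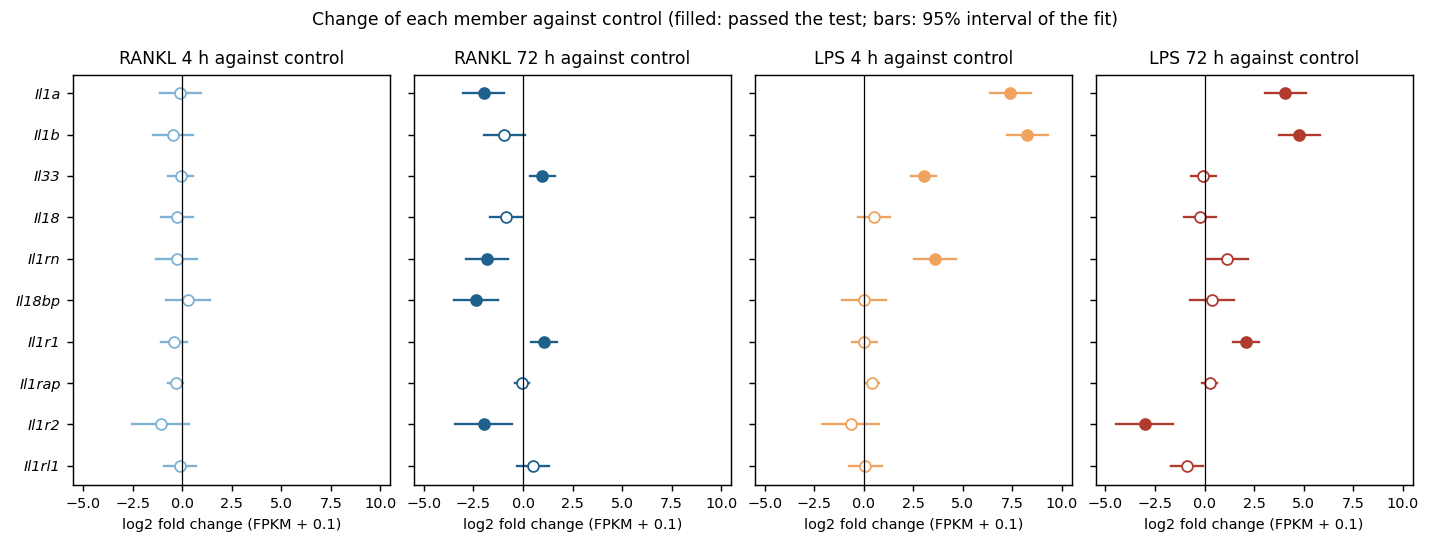
Log2 fold change of each member against control in the 4 stimulated groups (x axis, log2 of FPKM + 0.1, one panel per group; y axis, members). Filled circles passed the test and bars are 95% intervals of the fit. No circle is filled in RANKL 4 h, 6 are in RANKL 72 h, 4 in LPS 4 h and 4 in LPS 72 h. Those of RANKL 72 h and LPS 4 h include *Il33*, which entered the test only through its LPS 4 h level. Its LPS 4 h circle is a description and not a test result.

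*Il1b* and *Il1a* had the largest log2 fold changes of the 10 members after 4 h of LPS and were still above control at 72 h. In control cells *Il1b* stood at 7.11, 2.20 and 2.66 FPKM in replicates 1, 2 and 3, and in LPS 4 h at 1293, 907 and 1108 FPKM. *Il1a*, its neighbour 54.6 kb away on chromosome 2, stood at 5.97, 3.87 and 2.79 FPKM in control and at 766, 664 and 652 FPKM in LPS 4 h. No LPS 4 h sample of either gene came near a control sample. Among the 20089 genes, *Il1b* ranked 52 and *Il1a* 85 by mean level in LPS 4 h, against 7167 and 7026 in control. The log2 fold change was 8.25 ± 0.48 (SE, n = 3) for *Il1b* (adjusted p = 2e-08, limma) and 7.40 ± 0.48 for *Il1a* (adjusted p = 5.93e-08, limma).

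At 72 h of LPS the ligands had come down from the 4 h level and remained far above control. *Il1b* measured 159, 118 and 50.3 FPKM and *Il1a* measured 115, 123 and 22.6 FPKM. Replicate 3 was the lowest of the 3 for both genes, and it too lay above every control sample. Against control the log2 fold change was 4.78 for *Il1b* (adjusted p = 1.44e-05, limma) and 4.06 for *Il1a* (adjusted p = 4.42e-05, limma), and 4.86 for *Il1a* without LPS 72 h replicate 3. Between the LPS times *Il1b* fell by 3.47 and *Il1a* fell by 3.34 on the log2 scale, and the *Il1a* difference was -2.54 without LPS 72 h replicate 3.

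Neither ligand was called higher with RANKL, and at 72 h *Il1a* was below control in every sample. *Il1a* stood at 4.47, 3.26 and 3.57 FPKM in RANKL 4 h, within the control range, and at 1.17, 0.895 and 0.804 FPKM in RANKL 72 h, where the groups did not overlap (log2 fold change -1.98 ± 0.48, adjusted p = 0.00761, limma). With voom on fragment numbers the adjusted p of this fall was 0.0545. *Il1b* stood at 4.17, 1.99 and 1.83 FPKM in RANKL 4 h and at 2.70, 1.27 and 1.59 FPKM in RANKL 72 h. Its log2 fold change of -0.94 at 72 h did not pass the test (adjusted p = 0.148), and did with the replicate number as a block (adjusted p = 0.0221, limma). At 72 h *Il1a* was 65.7-fold and *Il1b* 52.8-fold lower with RANKL than with LPS, and the *Il1a* difference went from -6.04 to -6.83 (log2) without LPS 72 h replicate 3.

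*Il1a* lies at chr2:129299610-129309972 and *Il1b* at chr2:129364570-129371139, both on the minus strand (GENCODE M21, GRCm38). The antisense genes *Gm14023* and *Il1bos* share 222 and 25 exonic bases with them, and the sources used here do not say whether strand was used in counting, so such reads cannot be told apart. Sequence before RefSeq start sites (GRCm38.p6) is shown for *Il1a*, *Il1b*, *Il1rn* and *Il33*, which rose further above control in LPS 4 h than the other members. The LPS 4 h samples of *Il1rap* also lay above every control sample, but by less, and its sequence is not shown. Sequences run 5′ to 3′ on the gene's strand, with exonic bases of the gene left out. Capitals mark matches on either strand to AP-1 (TGANTCA), C/EBP (TTGCNNAA), CRE (TGACGTCA), ISRE, PU.1 (GAGGAA) or NF-κB.
*Il1a*, chr2:129309973-129310222, minus strand: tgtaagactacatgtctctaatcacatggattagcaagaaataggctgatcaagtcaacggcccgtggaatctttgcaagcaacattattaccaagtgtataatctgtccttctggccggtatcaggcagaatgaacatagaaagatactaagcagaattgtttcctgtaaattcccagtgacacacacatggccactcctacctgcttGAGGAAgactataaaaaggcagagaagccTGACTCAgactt
*Il1b*, chr2:129371140-129371389, minus strand: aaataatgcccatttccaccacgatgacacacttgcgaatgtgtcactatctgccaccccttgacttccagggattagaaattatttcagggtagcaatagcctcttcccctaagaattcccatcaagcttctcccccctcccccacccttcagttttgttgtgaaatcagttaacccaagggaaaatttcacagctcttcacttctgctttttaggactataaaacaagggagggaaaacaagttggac
*Il1rn*, first start, chr2:24336610-24336852, plus strand: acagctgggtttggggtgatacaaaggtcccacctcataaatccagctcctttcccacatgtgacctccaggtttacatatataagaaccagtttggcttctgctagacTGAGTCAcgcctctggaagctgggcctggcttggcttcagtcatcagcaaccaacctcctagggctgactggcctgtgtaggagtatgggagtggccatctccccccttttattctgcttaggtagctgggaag
*Il1rn*, second start, chr2:24345041-24345287, plus strand: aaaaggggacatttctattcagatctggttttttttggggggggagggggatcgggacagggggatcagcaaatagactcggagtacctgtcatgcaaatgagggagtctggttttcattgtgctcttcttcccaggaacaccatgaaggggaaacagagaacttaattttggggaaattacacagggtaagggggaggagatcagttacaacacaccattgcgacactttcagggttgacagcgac
*Il33*, first start, chr19:29924863-29925112, plus strand: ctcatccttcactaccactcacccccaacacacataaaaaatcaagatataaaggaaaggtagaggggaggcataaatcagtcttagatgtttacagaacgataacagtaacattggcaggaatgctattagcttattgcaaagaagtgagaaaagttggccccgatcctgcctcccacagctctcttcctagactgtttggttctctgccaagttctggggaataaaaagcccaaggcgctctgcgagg
*Il33*, second start, chr19:29945540-29945789, plus strand: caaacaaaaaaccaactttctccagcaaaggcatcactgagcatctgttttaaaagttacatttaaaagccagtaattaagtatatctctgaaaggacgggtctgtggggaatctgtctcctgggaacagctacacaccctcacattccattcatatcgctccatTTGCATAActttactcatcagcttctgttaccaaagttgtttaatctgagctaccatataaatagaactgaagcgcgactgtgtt

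The *Il1a* window held an AP-1 match 12 to 6 bases before the start and a PU.1 match 41 to 36 bases before it. The window of the first *Il1rn* start held an AP-1 match 141 to 135 bases before that start, and that of the second *Il33* start a C/EBP match 85 to 78 bases before it. The *Il1b* window, the second *Il1rn* window and the first *Il33* window held no match to any of the 6 motifs. None of the matches overlapped another. Over 250 bases before each of 32851 RefSeq starts, the share with a match was 6.75% for AP-1, 23.3% for PU.1, 9.56% for C/EBP, 3.90% for NF-κB, 2.98% for ISRE and 1.55% for CRE. Of 15 windows of the 10 members, 8 held none. A match in letters is a description and says nothing of binding.

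*Il33*, the gene of an alarmin cytokine kept in the nucleus of barrier and stromal cells, was counted in few fragments and stood highest in LPS 4 h. It had 38, 56 and 55 fragments in the LPS 4 h samples (0.638, 0.898 and 0.892 FPKM) against 0, 1 and 1 in control. RANKL 72 h had 2, 10 and 11 fragments, RANKL 4 h had 1, 0 and 0, and LPS 72 h had 0, 0 and 1. LPS 4 h and RANKL 72 h were thus the groups above control in every sample, LPS 4 h by more, and LPS 72 h had 1 fragment in all. Summed over 3 samples and scaled to depth, the fragment ratio to control was 74.0 in LPS 4 h (95% interval 20.1 to 617) and 12.0 in RANKL 72 h (2.96 to 105), where the intervals cover counting error only. On the log2(FPKM + 0.1) scale, which understates the change of low genes, the difference was 3.02 in LPS 4 h, given with no test since that group carried *Il33* over the filter. It was 0.98 ± 0.29 in RANKL 72 h (adjusted p = 0.0215, limma), a test that was run only because of the LPS 4 h level, and adjusted p = 0.0105 with no filter on low values. The RANKL 72 h call was lost after centring on the median gene (log2 0.76, adjusted p = 0.0757), without control replicate 1 (log2 0.90, adjusted p = 0.0760), without RANKL 72 h replicate 2 (log2 0.83, adjusted p = 0.0780) and without RANKL 72 h replicate 3 (log2 0.78, adjusted p = 0.0809). A pseudocount of 1 (log2 0.16, adjusted p = 0.112) and a fit of only the 2 groups compared (adjusted p = 0.0951) lost it too. *Il33* lies at chr19:29925114-29960718 on the plus strand.

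*Il18*, unlike *Il1a* and *Il1b* a cytokine gene that resting macrophages already express, was not called in any of the 8 comparisons of the FPKM as deposited. After centring on the median gene it was called lower in RANKL 4 h than in LPS 4 h (log2 -1.34, adjusted p = 0.0213, limma) and lower in LPS 72 h than in LPS 4 h (log2 -1.40, adjusted p = 0.0115, limma). The latter was also called without LPS 72 h replicate 3 (log2 -1.05, adjusted p = 0.0321) or control replicate 3 (adjusted p = 0.0325), the former without control replicate 3 (adjusted p = 0.0321), and both with only the 2 groups compared in the fit (adjusted p = 0.0361 and 0.0458). Its levels were 20.9, 14.9 and 6.61 FPKM in control, 14.3, 12.1 and 6.92 in RANKL 4 h, 6.25, 7.91 and 6.76 in RANKL 72 h, 21.8, 18.6 and 14.9 in LPS 4 h and 8.95, 8.59 and 16.2 in LPS 72 h. The control samples alone ran from 6.61 to 20.9 FPKM, and each other group overlapped them. The 95% interval of the log2 fold change was -0.29 to 1.32 in LPS 4 h and -1.67 to -0.06 in RANKL 72 h (log2 -0.87, adjusted p = 0.0935, limma). Without control replicate 3, the lowest control sample, the RANKL 72 h difference was -1.33 (adjusted p = 0.00890, limma). *Il18* is at chr9:50554827-50581840, plus strand.

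*Il1rn*, which encodes the IL-1 receptor antagonist, rose with LPS from an already high level and fell with RANKL at 72 h. It stood at 115, 50.4 and 45 FPKM in control, at 84.3, 39.5 and 43.5 in RANKL 4 h, at 15.3, 28.4 and 13.6 in RANKL 72 h, at 965, 617 and 772 in LPS 4 h and at 183, 246 and 63.4 in LPS 72 h. All LPS 4 h samples were above, and all RANKL 72 h samples below, every control sample, whereas LPS 72 h replicate 3 lay within the control range. The log2 fold change was 3.59 ± 0.49 in LPS 4 h (adjusted p = 3.49e-05, limma), -1.81 ± 0.49 in RANKL 72 h (adjusted p = 0.0126, limma) and 1.15 ± 0.49 in LPS 72 h, which missed the threshold (adjusted p = 0.0797, limma). Without LPS 72 h replicate 3 the last was 1.73 (adjusted p = 0.00662), and without control replicate 1 it was 1.57 (adjusted p = 0.0311). The RANKL 72 h call was lost without control replicate 1 (log2 -1.39, adjusted p = 0.0649) and without RANKL 72 h replicate 3 (log2 -1.61, adjusted p = 0.0501). *Il1rn* is at chr2:24336853-24351494, plus strand, and its secreted and intracellular forms are not separated in a gene-level table.

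*Il1b* rose more than *Il1rn* in LPS, and the ratio of the antagonist to this ligand fell. The *Il1rn* to *Il1b* ratio of FPKM was 16.1, 22.9 and 16.9 in control and 0.747, 0.680 and 0.696 in LPS 4 h. At 72 h of LPS it was 1.15, 2.08 and 1.26. These groups did not overlap control, with log2 differences of -4.66 and -3.63 (each p = 0.1 in a two-sided exact permutation test, the smallest that 3 samples against 3 can give). RANKL 4 h, at 20.2, 19.9 and 23.8, and RANKL 72 h, at 5.66, 22.3 and 8.53, overlapped control (each exact permutation p = 0.3). The *Il1b* to *Il1a* ratio averaged 0.904 ± 0.315 (SD) in control, 1.58 ± 0.19 in LPS 4 h and 1.91 ± 0.45 in RANKL 72 h. In RANKL 72 h and LPS 4 h it lay above every control sample (each exact permutation p = 0.1), in the first with both genes low and in the second with both high.

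**Figure D3:**
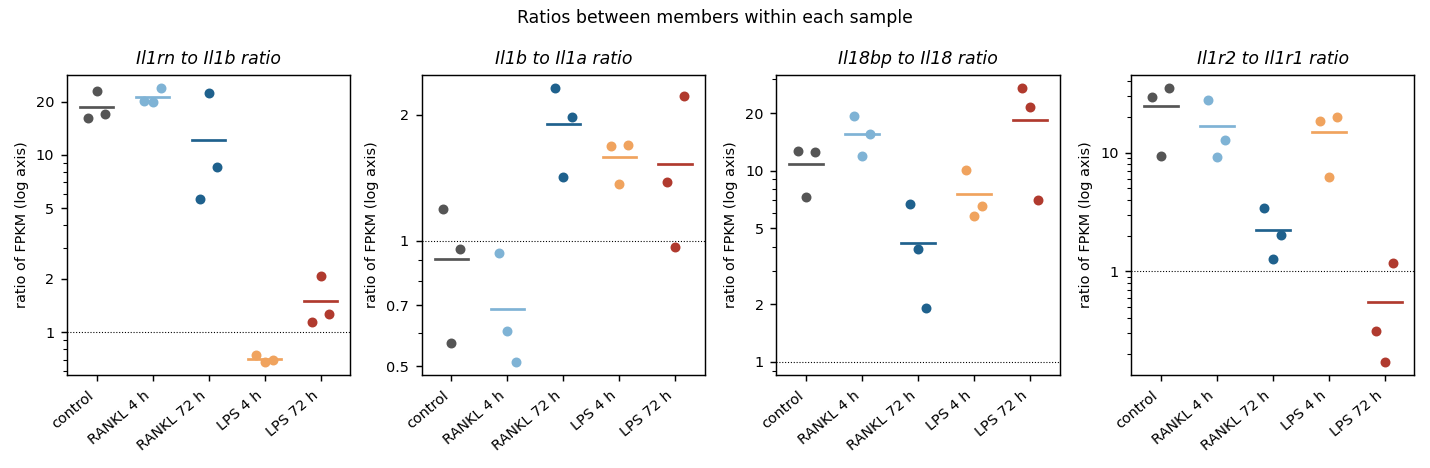
Ratios of FPKM between members within each sample (y axis, log scale; x axis, the 5 groups; points are samples, lines means of 3, and the dotted line marks equal levels). The *Il1rn* to *Il1b* ratio is below 1 in the LPS 4 h samples, at 0.680 to 0.747, and the *Il1r2* to *Il1r1* ratio is below the control range in both 72 h groups.

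*Il18bp*, the gene of the IL-18 binding protein, fell at 72 h of RANKL and was not called against control in the other groups. It stood at 264, 108 and 82.3 FPKM in control and at 41.8, 30.7 and 13.0 FPKM in RANKL 72 h, with no overlap (log2 fold change -2.38 ± 0.52, adjusted p = 0.00417, limma). It stood at 276, 143 and 107 in RANKL 4 h, at 221, 109 and 97.5 in LPS 4 h and at 241, 184 and 113 in LPS 72 h. Replicate 1 was the highest sample in all 5 groups, as it was for *Il1b*, and was the highest in control for 30.6% of tested genes. At 72 h *Il18bp* was 6.68-fold lower with RANKL than with LPS (adjusted p = 0.000768, limma). The *Il18bp* to *Il18* ratio was 12.6, 7.25 and 12.5 in control and 6.68, 3.88 and 1.92 in RANKL 72 h (log2 difference -1.51, exact permutation p = 0.1). *Il18bp* is at chr7:102014885-102018690, minus strand, and shares 80 exonic bases with *Numa1* on the other strand.

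*Il1r1*, the signalling receptor of IL-1, was low in control cells and rose at 72 h under both stimuli, more with LPS. Its levels were 0.317, 0.264 and 0.204 FPKM in control, 0.888, 0.806 and 0.363 in RANKL 72 h and 1.75, 1.36 and 1.26 in LPS 72 h. The 3 groups did not overlap, although RANKL 72 h replicate 3 lay close to the control range. The 4 h groups, at 0.173, 0.199 and 0.143 with RANKL and 0.332, 0.325 and 0.169 with LPS, were not called, although each RANKL 4 h sample lay below every control sample (log2 -0.41, adjusted p = 1, limma). The log2 fold change against control was 2.10 ± 0.30 in LPS 72 h (adjusted p = 0.00016, limma) and 1.05 ± 0.30 in RANKL 72 h (adjusted p = 0.0172, limma), and RANKL 72 h was 2.07-fold below LPS 72 h (adjusted p = 0.0112, limma). The RANKL 72 h call was lost without control replicate 3 (log2 0.94, adjusted p = 0.0572), RANKL 72 h replicate 1 (log2 0.85, adjusted p = 0.0700) or RANKL 72 h replicate 2 (log2 0.91, adjusted p = 0.0658), and the difference between stimuli without RANKL 72 h replicate 3 (log2 -0.71, adjusted p = 0.0519). With only the 2 groups compared in the fit both calls were lost (adjusted p = 0.0603 and 0.0505). A pseudocount of 1 left both short of the fold threshold (log2 0.40 and -0.55). *Il1r1* is at chr1:40225080-40317257, plus strand.

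Stromal cell markers rose with *Il1r1* in RANKL 72 h, while in LPS 72 h the share of them called higher was near that of all genes. Of 18 stromal markers, 10 were higher in RANKL 72 h and 3 in LPS 72 h, where 16.6% and 13% of all genes were. None was lower in either, against 7.54% and 14.4% of all genes. Their summed level was 198 to 406 FPKM in control, 528 to 2358 FPKM in RANKL 72 h and 163 to 657 FPKM in LPS 72 h. Replicates 1, 2 and 3 of LPS 72 h lay at 163, 201 and 657 FPKM, with *Il1r1* at 1.75, 1.36 and 1.26 FPKM. After centring on the median gene 4 were higher in RANKL 72 h and 1 in LPS 72 h, against 9.94% and 10.3% of all genes. *Lum* was at 0 in control replicate 3 and RANKL 72 h replicate 3, and the other 17 were above 0 in every sample. The part of these cells in the *Il1r1* values of both 72 h groups, and in the *Il33* values of RANKL 72 h, was not tested.

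*Il1r2*, the decoy receptor, fell at 72 h under both stimuli. It stood at 9.47, 2.47 and 7.16 FPKM in control, at 3.03, 1.02 and 0.740 in RANKL 72 h and at 0.547, 0.234 and 1.47 in LPS 72 h. All LPS 72 h samples lay below control, while RANKL 72 h replicate 1 lay above control replicate 2. At 4 h it stood at 4.86, 1.85 and 1.85 with RANKL and at 6.11, 2.03 and 3.37 with LPS, neither called. The log2 fold change was -3.01 ± 0.67 in LPS 72 h (adjusted p = 0.00356, limma), or -3.60 without LPS 72 h replicate 3, and -1.97 ± 0.67 in RANKL 72 h (adjusted p = 0.0386, limma). The RANKL 72 h call was lost without control replicate 1, control replicate 3, RANKL 72 h replicate 2 or RANKL 72 h replicate 3, with log2 fold changes of -1.59, -1.79, -1.80 and -1.59 and adjusted p of 0.148, 0.0998, 0.107 and 0.137. *Il1r2* is at chr1:40074079-40125231, plus strand, 99.8 kb before *Il1r1*.

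Neutrophils express *Il1r2*, and neutrophil markers fell with it in LPS 72 h and in part in RANKL 72 h. Of 14 neutrophil and precursor markers, 6 were lower in RANKL 72 h, where 7.54% of all genes were. They were *S100a8*, *Mpo*, *Elane*, *Prtn3*, *Ctsg* and *Csf3r*. The others, *S100a9*, *Ly6g*, *Retnlg*, *Camp*, *Ltf*, *Ngp*, *Cxcr2* and *Mmp8*, were not called. *Retnlg* averaged 107 FPKM in RANKL 72 h and 106 in control. In LPS 72 h 12 of the 14 markers were lower and 1 was higher, against 14.4% and 13% of all genes. Their summed level was 24505, 7978 and 21844 FPKM in control replicates 1, 2 and 3, in the same order as *Il1r2*, and 370, 342 and 2092 FPKM in LPS 72 h, again in the same order. In RANKL 72 h it was 1936 to 7753 FPKM. Mast cell and basophil markers also fell, 8 of 8 tested in RANKL 72 h and 7 of 8 in LPS 72 h, where 7.54% and 14.4% of all genes fell. Their summed level went from 32.4 to 94.4 FPKM in control to 2.88 to 12.6 and 3.67 to 8.58 FPKM. *Ly6g* was at 0 in LPS 72 h replicate 2 and *Ctsg* in LPS 72 h replicate 1, and the other 12 neutrophil markers were above 0 in every sample. The part of these cells in the *Il1r2* values was not tested.

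With the signalling receptor up and the decoy down, the *Il1r2* to *Il1r1* ratio fell furthest in LPS 72 h. It was 29.8, 9.37 and 35.1 in control, 3.41, 1.27 and 2.04 in RANKL 72 h and 0.312, 0.172 and 1.17 in LPS 72 h. Both 72 h groups lay below every control sample, with log2 differences of -3.03 and -5.12 (each exact permutation p = 0.1). At 4 h the ratio averaged 16.8 with RANKL and 14.9 with LPS and overlapped control.

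**Figure D4:**
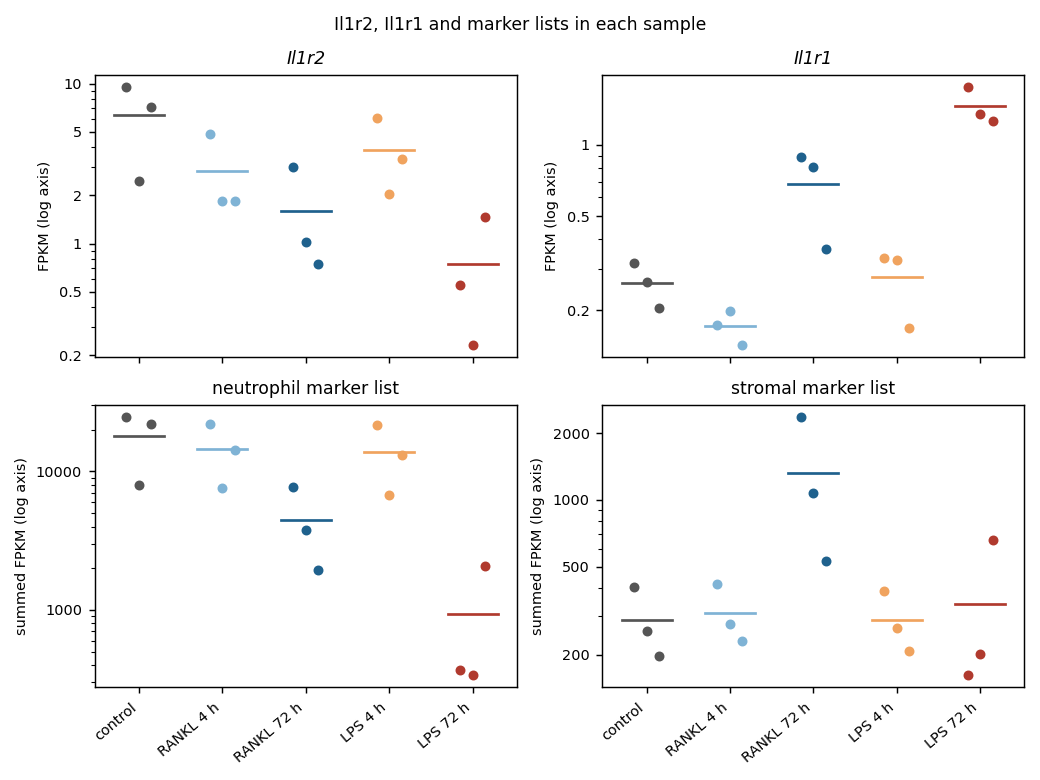
*Il1r2* and *Il1r1* (top, FPKM) above the summed FPKM of the neutrophil and stromal marker lists (bottom) in each sample, all on log axes, with groups on the x axis, points for samples and lines for means of 3. *Il1r2* and the neutrophil list are both lowest in LPS 72 h, and *Il1r1* is highest in LPS 72 h, where the stromal list overlaps control.

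*Il1rap*, the shared accessory chain, varied little, with group means from 1.25 to 2.21 FPKM. It stood at 1.47, 1.52 and 1.88 FPKM in control, at 1.27, 1.17 and 1.31 in RANKL 4 h, at 1.5, 1.77 and 1.38 in RANKL 72 h, at 2.11, 2.0 and 2.53 in LPS 4 h and at 1.98, 2.0 and 1.84 in LPS 72 h. LPS 4 h lay above every control sample by 0.43 ± 0.17 on the log2 scale (adjusted p = 0.0386, limma), short of the fold threshold, and by 1.0 after centring on the median gene, which passed it (adjusted p = 0.00018). RANKL 4 h was 1.70-fold below LPS 4 h (adjusted p = 0.00129, limma). *Il1rap* is at chr16:26581704-26730117, plus strand, and shares 552 exonic bases with the antisense gene *Gm20319*.

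*Il1rl1*, the IL-33 receptor ST2, was low throughout, at 7 to 74 fragments a sample. It stood at 0.294, 0.170 and 0.356 FPKM in control, at 0.312, 0.157 and 0.278 in RANKL 4 h, at 0.453, 0.406 and 0.405 in RANKL 72 h, at 0.393, 0.106 and 0.468 in LPS 4 h and at 0.0441, 0.0912 and 0.175 in LPS 72 h. RANKL 72 h lay above every control sample and LPS 72 h overlapped control by 1 sample, neither called against it (RANKL 72 h log2 0.51, adjusted p = 0.315, and LPS 72 h log2 -0.89, adjusted p = 0.0801), and differed from each other by 1.41 ± 0.38 (adjusted p = 0.00778, limma). *Il1rl1* is a known marker of mast cells, whose list fell in both 72 h groups, and lies at chr1:40429570-40465415, plus strand, 112.3 kb after *Il1r1*. Its membrane and soluble forms are not separated here.

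Set directly against each other, the stimuli differed for 4 of the 9 members at 4 h and 6 at 72 h. At 4 h *Il1a*, *Il1b*, *Il1rn* and *Il1rap* were lower with RANKL, where 50% of all genes differed in either direction. At 72 h *Il1a*, *Il1b*, *Il1rn*, *Il18bp* and *Il1r1* were lower and *Il1rl1* higher with RANKL, where 36.1% of all genes differed. Between 4 h and 72 h of RANKL, 4 differed, *Il1a*, *Il1rn* and *Il18bp* downwards and *Il1r1* upwards, against 23.3% of all genes. Between 4 h and 72 h of LPS, 6 differed, *Il1r1* upwards and *Il1a*, *Il1b*, *Il1rn*, *Il1r2* and *Il1rl1* downwards, against 58.1% of all genes. Counted in either direction, the shares of members called at 4 h between stimuli, and between the LPS times, are near those of all genes, but the directions differed. At 4 h all 4 members called were lower with RANKL, where 8.98% of all genes were lower and 41% higher. Between the LPS times the members called were lower at 72 h except *Il1r1*, where 13.9% of all genes were lower and 44.2% higher. After centring on the median gene, the share of differing genes that were higher with RANKL went from 82.1% to 45.3% at 4 h and from 64.5% to 52.2% at 72 h. With the same centring, the share higher at 72 h than at 4 h went from 70.6% to 45.8% for RANKL and from 76.1% to 40.7% for LPS.

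The remaining family genes were few in these cells. Of 11 further ligand and receptor genes listed, 6 passed the filter, and *Il1f5*, *Il1f8*, *Il1f10*, *Il1rapl1* and *Il1rapl2* did not. In LPS 4 h, *Il1f9* (IL-36γ) rose and *Sigirr*, an inhibitory receptor, fell. *Il1f6* (IL-36α) was listed at 0 in every sample of control and of both RANKL groups, and passed the filter only through the LPS groups. It stood at 4.25, 1.58 and 3.10 FPKM in LPS 4 h and was also higher in LPS 72 h, given as a description with no test. *Il1f9* rose from 10.2 ± 7.6 (SD, n = 3) to 58.3 ± 33.7 FPKM (log2 2.69, adjusted p = 0.00534, limma). In LPS 72 h, *Il1rl2*, the IL-36 receptor, rose and *Il18rap*, a chain of the IL-18 receptor, and *Sigirr* fell. *Il1rl2* went from 2.42 ± 0.39 to 6.63 ± 0.91 FPKM. None of the 6 was called at either time of RANKL, though *Il1rl2* was called lower in RANKL 72 h after centring on the median gene, and the *Il18rap* call was lost with voom.

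Of 16 receptor signalling genes listed, all tested, 6 rose and 4 fell in LPS 4 h, where 8.43% of all genes rose and 39.7% fell. In LPS 72 h 4 rose and 1 fell (13% and 14.4% of all genes), in RANKL 72 h 2 rose and 1 fell (16.6% and 7.54%), and 0 were called in RANKL 4 h. The adaptor gene *Myd88* went from 57.9 ± 6.9 FPKM in control to 147 ± 9.8 in LPS 4 h and 30.5 ± 2.1 in RANKL 72 h, opposite calls. *Irak3*, an inhibitory IRAK, rose from 9.86 ± 0.86 to 47.5 ± 8.6 FPKM in LPS 4 h and 57.8 ± 15.4 in LPS 72 h. *Nfkbia*, the inhibitor of NF-κB and itself a target gene, rose in LPS 4 h, LPS 72 h and RANKL 72 h, to 716, 162 and 135 FPKM from 43.4 FPKM. *Irak2*, *Tab2* and the ubiquitin ligase gene *Peli1* were the other genes that rose in LPS 4 h, and *Irak1*, *Irak4*, *Tab1* and *Peli2* fell. After centring on the median gene, 7 rose and 2 fell in LPS 4 h, the calls of *Irak1* and *Irak4* being lost. *Irak2* and *Ikbkg* also rose and *Tab1* fell in LPS 72 h, and *Traf6* rose in RANKL 72 h, a call lost after centring.

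Of 13 genes of cytokine processing and release, 3 rose and 3 fell in LPS 4 h (8.43% and 39.7% of all genes), 3 rose and 2 fell in LPS 72 h (13% and 14.4%), 1 fell in RANKL 72 h (7.54%) and 0 were called in RANKL 4 h. *Nlrp3*, the inflammasome sensor, rose from 12.8 ± 1.2 to 173 ± 24.6 FPKM in LPS 4 h (log2 3.74) and stood at 28.9 ± 5.8 in LPS 72 h (log2 1.15). *Casp1*, the protease that matures IL-1β and IL-18, went from 70.5 ± 6.4 to 136 ± 21 FPKM in LPS 4 h and to 42.2 ± 7.1 in RANKL 72 h, where it fell. *Casp4*, the LPS-sensing caspase, rose in both LPS groups, and *Pycard*, the inflammasome adaptor, and *Dfna5*, a gasdermin gene, fell in both. *Capn1* fell in LPS 4 h and *Nlrc4* rose in LPS 72 h. After centring, 5 rose and 1 fell in LPS 4 h, the calls of *Pycard* and *Capn1* being lost, 0 rose and 3 fell in RANKL 72 h, and *Nlrc4* was not called in LPS 72 h.

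The genes whose pattern over the 15 samples was most like that of *Il1a* and *Il1b* included the LPS response genes *Il6*, *Cxcl1* and *Cxcl2*, an interleukin and chemokines. Pearson's r of log2(FPKM + 0.1), among the 9486 genes averaging 1 FPKM or more, is a description here, since 5 groups of samples and the shared libraries shape it. For *Il1a* the 3 closest were *Il6* (r = 0.993), *Cxcl1* (0.990) and *Cxcl2* (0.990), and for *Il1b* they were *Cxcl2* (0.991), *Il6* (0.991) and *N4bp1* (0.989). *Il1rn* was closest to *Adora2b* (0.975), *Slfn2* and *Mafk* (each 0.971), and *Il33* to *Kpna3* (0.974), *Tnip3* (0.965) and *Nfkb1* (0.964). *Il18bp* was closest to *H2-T23* (0.970), *4933430I17Rik* (0.965) and *H2-M3* (0.955), of which *H2-T23* and *H2-M3* are class I antigen presentation genes. *Il1r2* was closest to *Fam65b* (0.945) and *Nfe2* (0.944), and *Il1rl1* to *Anxa1* (0.911), *Retnlg* (0.901) and *Asprv1* (0.883), of which *Retnlg* is on the neutrophil list. The nearest to *Il18* (*Tspo*, *Tapbp* and *Themis2*, 0.914 to 0.895), *Il1rap* (*Cers6*, *Trim56* and *Pi4k2b*, 0.899 to 0.896) and *Il1r1* (*Clk3*, *Gatsl3* and *Dnajc12*, 0.887 to 0.882) had an r no higher than 0.914.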

How the data were processed

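BMDM RNA-seq libraries, 15 in all, were grouped by their labels into 5 groups of 3. The authors deposited FPKM values, 1 per gene and sample, estimated with StringTie and Ballgown per their methods; the labels name the build GRCm38.p4 (mm10), and the aligner is not given in the sources used here. The table used here ends after *Tti2*, and later genes were not analysed here. Fragment numbers were recovered from the steps of the FPKM values for 14485 genes, 100% of those above 0 in at least 3 samples (tolerance 0.01 of a fragment), and intervals from them cover counting error only.

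log2(FPKM + 0.1) of the 11743 genes averaging 0.1 FPKM or more was fitted with limma 3.58.1 (lmFit, eBayes with trend, R 4.3.3) over 5 groups, with 8 contrasts and Benjamini-Hochberg adjustment over all tested genes, and tested on simulated data. FPKM are not counts, so no count model was the main test. Ratios were compared by two-sided exact permutation tests (scipy 1.17.1). The 10 members, the gene and marker lists, the 3 most alike genes per member and the motifs were chosen with earlier results of these data known. Genes of the lists are named where called against control or not tested. One of the genes most alike to *Il1r2* is not reported here.

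Replicate numbers paired the samples of 4 groups (control, LPS 4 h and both RANKL groups): deviations from the group mean of same-numbered samples correlated at 0.10 to 0.84 over 9486 genes, every pair above 0.1. Those with LPS 72 h did not (-0.23 to 0.18). No samples of the same group repeated each other, replicates differing by at least 7.49 times the sampling noise. LPS 72 h replicate 3 stood furthest apart, at 52.7 and 35.9 times that noise from replicates 1 and 2, which differed by 8.41 times. Samples of different groups were not compared in this way. Alternatives varied the pseudocount, filter, scaling, samples fitted, replicate block, trend, thresholds and tool.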

Additional observations from a re-analysis of the deposited data

Results flagged for a closer look

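Levels of some members differed between 4 h and 72 h of a stimulus in the limma test of the difference itself (log2, 72 h minus 4 h). The shared control cancels from this difference, in which stimulus and time in culture cannot be told apart. For RANKL the level differed for *Il1a* (-1.88), *Il1rn* (-1.53), *Il18bp* (-2.66), *Il1r1* (1.46) and *Il33* (1.05). The *Il1a* difference lost its call with voom (log2 -1.97, adjusted p = 0.0698). With a pseudocount of 1 the *Il33* difference lost its call (log2 0.17, adjusted p = 0.0995), and that of *Il1r1* fell short of the fold threshold (log2 0.51). The *Il1rn* difference was lost without RANKL 4 h replicate 1, RANKL 72 h replicate 1 or RANKL 72 h replicate 3 (adjusted p 0.0838 to 0.125), and that of *Il33* without RANKL 72 h replicate 2 or replicate 3 (adjusted p 0.0611 and 0.0613), after centring on the median gene (log2 0.83, adjusted p = 0.0549) and with only the 2 groups compared in the fit (adjusted p = 0.0796).

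For LPS the level differed for *Il1a* (-3.34), *Il1b* (-3.47), *Il1rn* (-2.44), *Il1r1* (2.07), *Il1r2* (-2.36), *Il1rl1* (-0.98) and *Il33* (-3.09). The *Il33* value is a description, since *Il33* was tested only because of its LPS 4 h level. Without LPS 72 h replicate 3 the *Il1r2* difference was -2.95 and that of *Il1a* -2.54. *Il1r1* and *Il1r2* were further from control at 72 h of LPS, upwards and downwards, and *Il1a*, *Il1b*, *Il1rn* and *Il33* were further from it at 4 h. The *Il1rl1* samples of the LPS times overlapped, and its call was lost when LPS 4 h replicate 1, LPS 4 h replicate 3, LPS 72 h replicate 1 or LPS 72 h replicate 2 was left out (adjusted p 0.0743 to 0.148). A fit of only the 2 groups compared (adjusted p = 0.0835) and a pseudocount of 1 (log2 -0.25) lost the *Il1rl1* call too. Replicate 3 of LPS 72 h was lowest of its group for *Il1a*, *Il1b* and *Il1rn* and highest for *Il18*, *Il1r2* and *Il1rl1*, and its neutrophil marker sum of 2092 FPKM compared with 342 and 370 FPKM in the other LPS 72 h samples. The macrophage marker sum was 6200, 7955 and 17598 FPKM in LPS 72 h replicates 1, 2 and 3.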

How the results depend on the processing

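No member's log2 fold change that passed the test changed sign under any alternative run. Over all 10 members and 8 comparisons, called or not, 2136 log2 fold changes were recomputed. Of these, 2069 stayed on their side of the threshold, 46 lost a call and 21 gained one. All 128 recomputed ratio differences kept their direction or moved by less than 1 SD, a rule that does not limit the size of a move in the same direction. The number of members called, *Il33* included, fell for RANKL 72 h against LPS 72 h from 7 to 4 with a pseudocount of 1 and to 4 with a mean of at least 1 FPKM, for RANKL 72 h against RANKL 4 h from 5 to 3 under each of these, and for LPS 72 h against LPS 4 h from 7 to 4 with the latter, which takes *Il1r1*, *Il1rl1* and *Il33* out of the test. For RANKL 72 h against control it fell from 6 to 3 with only the 2 groups compared in the fit. Leaving out 1 sample at a time gave 3 to 6 members for RANKL 72 h against control, with 3 without control replicate 1, RANKL 72 h replicate 2 or RANKL 72 h replicate 3, and 3 to 5 for RANKL 72 h against RANKL 4 h, with 3 without RANKL 72 h replicate 3. The *Il1r2* call in RANKL 72 h was also lost with no filter on low values (adjusted p = 0.0564) and with only the 2 groups compared (adjusted p = 0.0530). With the replicate block 7 members were called for RANKL 72 h against control, adding *Il1b* (adjusted p = 0.0221, limma), and 6 for LPS 72 h, whose numbers did not pair, adding *Il1rn* (adjusted p = 0.0387) and *Il1rl1* (adjusted p = 0.0395), and the block changed no other call. The low fragment numbers of *Il33*, *Il1rl1* and *Il1r1* limit what can be said of them. Where no value above shows the cause of a lost call, the cause was not tested.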
